A study of Mus musculus with 4 samples.

Results

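Transcription factors and co-activators that drive fat cell formation were examined in epididymal adipose tissue, the visceral fat pad beside the epididymis, of obese male mice with different diet histories. The members were 10 genes picked by symbol, namely Pparg, Cebpa, Cebpb, Cebpd, Klf15, Rxra, Ebf1, Ebf2, Zfp423 and Ppargc1b, out of 24421 gene symbols measured by RNA-sequencing (RNA-seq). All mice were male C57BL/6J with the wild-type (WT) genotype, and both groups were obese on high-fat diet (HFD). Weight-cycling (WC1) mice started HFD at 8 weeks of age, ate it for 8 weeks, were switched to standard diet (SD) for 2 weeks to lose weight, and returned to HFD for 6 weeks. High-fat control (Ctrl) mice started HFD at 10 weeks of age and ate it without a break for 14 weeks. HFD thus lasted 14 weeks in all in either group, and the mice ended at an age of 24 weeks. Each group had 2 libraries, and how many mice each library represents is not given in the labels, so p values measure the spread between these libraries only.

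The factors act in a cascade. CEBPB and CEBPD are induced early when a precursor cell begins to differentiate, and they switch on PPARG and CEBPA, which then keep each other on and activate most genes of the mature fat cell. PPARG binds DNA as a pair with RXRA. ZFP423, EBF1 and EBF2 act in committed precursors and in fat cells, KLF15 activates genes of glucose and lipid handling, and PPARGC1B is a co-activator of nuclear receptors. CEBPB and CEBPD are also made in macrophages and in the response to cytokines and glucocorticoids.

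The promoters of the called members, meaning those with a limma adjusted p under 0.05, are shown first because C/EBP factors are known to act on other members of the cascade. RefSeq promoters (build GRCm38.p6) were found for 7 of the 10 members, at 12 start sites, and the 250 bases upstream of a start site are printed 5′ to 3′ on the strand of the gene. No entry was matched for Cebpd, Ebf2 and Ppargc1b. Capitals mark matches to the motifs searched on both strands, which were TTGCNNAA for C/EBP, CCCNNGGG for EBF, TGACG for the core of a cAMP response element, TTCNNNGAA for STAT, a direct repeat of AGGTCA with a spacer of 1 base for PPAR and RXR, and TATAAA.
Pparg, the third of 3 start sites, chr6:115421816-115422065, + strand: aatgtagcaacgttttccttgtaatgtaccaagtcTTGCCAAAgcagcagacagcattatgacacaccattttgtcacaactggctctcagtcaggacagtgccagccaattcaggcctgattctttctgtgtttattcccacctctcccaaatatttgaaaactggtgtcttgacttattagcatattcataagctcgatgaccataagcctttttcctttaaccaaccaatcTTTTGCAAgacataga
Zfp423, the first of 2 start sites, chr8:87959596-87959845, - strand: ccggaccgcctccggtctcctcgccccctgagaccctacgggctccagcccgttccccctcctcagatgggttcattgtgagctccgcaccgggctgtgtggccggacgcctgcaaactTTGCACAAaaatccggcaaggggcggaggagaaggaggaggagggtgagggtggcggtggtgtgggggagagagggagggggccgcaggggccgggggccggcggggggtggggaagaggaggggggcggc
Cebpb, chr2:167688665-167688914, + strand: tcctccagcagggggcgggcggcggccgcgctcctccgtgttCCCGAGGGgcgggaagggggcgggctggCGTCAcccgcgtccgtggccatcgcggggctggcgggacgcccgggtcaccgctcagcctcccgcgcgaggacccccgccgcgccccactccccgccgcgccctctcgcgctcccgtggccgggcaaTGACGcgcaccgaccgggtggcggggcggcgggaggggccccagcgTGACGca

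The windows printed for Pparg and Zfp423 are those that held a C/EBP match, and no window of Cebpa, Klf15, Rxra or Ebf1 held one. The Pparg window held a pair of C/EBP matches, starting 215 and 16 bases upstream of the start site. This start site lies inside the Pparg gene (chr6:115360951-115490399, + strand), and the other 2 windows of Pparg held no C/EBP match. The Zfp423 window held 1 C/EBP match, 131 bases upstream of the start site of the gene (chr8:87661810-87959595, - strand). The other Zfp423 window held no C/EBP match and 1 EBF match, 28 bases upstream of its start site. The Cebpb window, at the start of an intronless gene of 1504 bases (chr2:167688915-167690418, + strand), held no C/EBP match, 1 EBF match and 3 matches to TGACG, starting 180, 53 and 7 bases upstream. Over all 32851 promoter windows of this length, 9.56% held TTGCNNAA, 11.8% CCCNNGGG, 17.8% TGACG, 7.02% TTCNNNGAA, 12.4% TATAAA and 0.0335% the AGGTCA repeat. No matches overlapped in the printed windows, none of the 12 member windows searched held the AGGTCA repeat, and a match in letters does not show binding.

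The 4 libraries held between 61465029 and 90965297 reads, and 14106 genes with at least 0.5 CPM (reads per gene scaled to library size) in 2 or more libraries were tested, all 10 members among them. Adipocyte markers such as Adipoq and Plin1 were present in every library, 8 of the 10 markers rose in WC1, and their summed level was 10333 and 11655 CPM in Ctrl and 18619 and 23881 CPM in WC1. Of 10 macrophage markers 4 fell and 1 was fitted above 0, with summed levels of 12394 and 11306 CPM in Ctrl and 7257 and 5058 CPM in WC1. Of 12 markers of adipose progenitors and fibroblasts 5 fell (3873 and 3922 against 3234 and 3079 CPM). Another 4 of the 12 were fitted above 0, 3 of them without overlap between the groups, and 0 were called higher. Of 8 endothelial markers 6 rose (371 and 416 against 772 and 1005 CPM). Over all tested genes 10.2% were called higher and 7.71% lower. Of 8 mesothelial markers and 7 tested T and B cell markers 0 were called in limma. Their summed levels were highest in WC1 2, with 145 and 106 CPM in Ctrl and 70.0 and 191 CPM in WC1 for the mesothelial list and 9.91, 5.15, 8.13 and 27.8 CPM in the same order for the T and B cell list. Of 5 tested brown adipocyte markers 2 rose (30.3 and 36.8 against 55.0 and 65.0 CPM for the list), and Ucp1, the defining marker, was too low to test. None of the 8 epididymis markers reached the level required for testing, and 4 of them (Lcn5, Lcn8, Crisp1 and Spag11a) were at 0 in every library. Their summed level was 3.51 CPM in WC1 1, of which a single marker gave 3.02 CPM, and between 0.13 and 0.35 CPM in the other libraries. In whole tissue, fewer cells of a type and less RNA per cell cannot be told apart.

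Among the 10 factors, Pparg and Zfp423 rose in WC1 and Cebpb and Cebpd fell, while Cebpa, Klf15, Rxra, Ebf1, Ebf2 and Ppargc1b did not pass the test (limma on log2(CPM + 1), Benjamini-Hochberg adjusted p under 0.05 over all tested genes). Thus 4 of 10 were called, compared to 17.9% of all tested genes; 2 were higher (10.2% of all genes were called higher) and 2 were lower (7.71% of all genes were called lower). No overlap between the WC1 and Ctrl values was seen for 6 of the 10, compared to 69.3% of all genes, 4 of them higher (32.7% of all genes) and 2 lower (36.6%), so separation of the libraries alone does not set the factors apart. In the TPM matrix 3 factors were higher, with Ebf1 added, and 2 lower, and 18.7% of all genes were called, 14.6% higher and 4.13% lower. The median log2 fold change on the CPM scale, WC1 minus Ctrl, was 0.16 over the 10 factors and -0.02 over all genes.

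**Figure D1:**
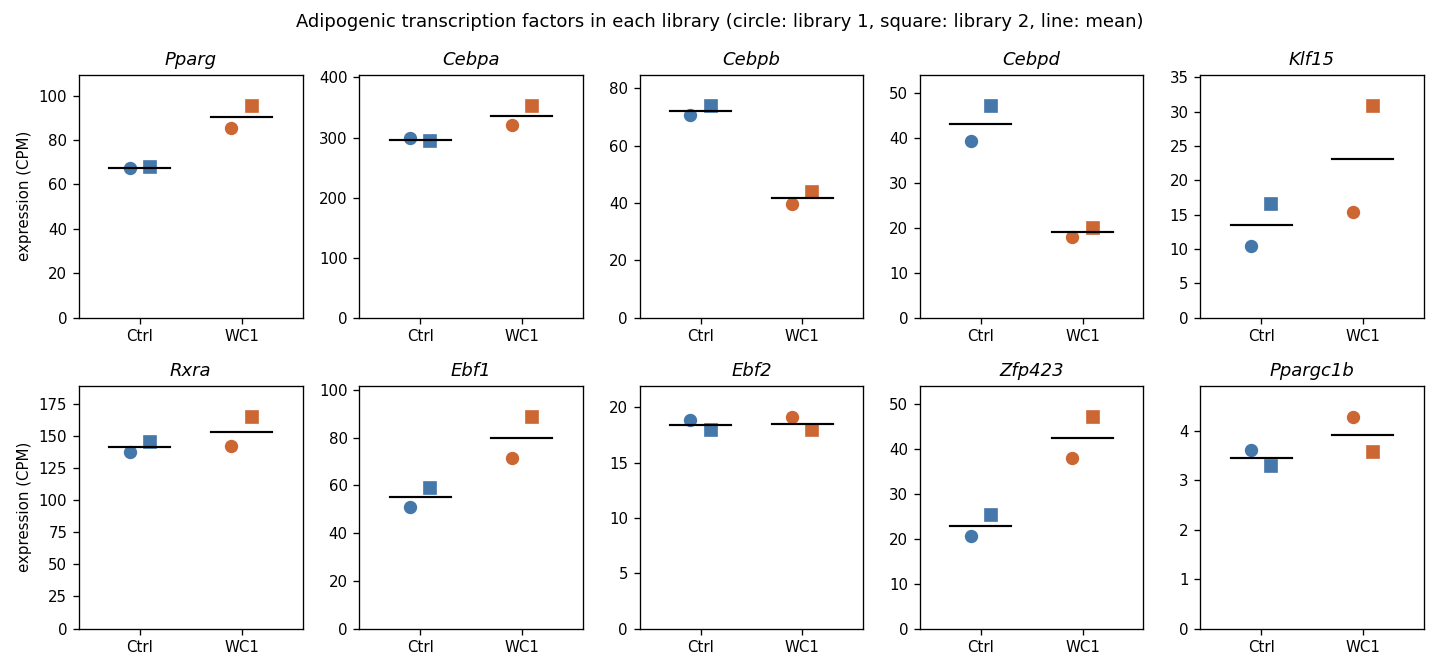
Expression of the 10 factors in each library in CPM (y axis, linear from 0) by group (x axis), with 1 point per library and the group mean as a line. Both WC1 libraries lie below both Ctrl libraries for Cebpb and Cebpd and above them for Pparg, Cebpa, Ebf1 and Zfp423.

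Pparg encodes the nuclear receptor that is required for fat cell formation. It was at 67.2 and 67.8 CPM in Ctrl 1 and Ctrl 2 and at 85.3 and 95.1 CPM in WC1 1 and WC1 2, with between 4597 and 5988 reads per library. The Ctrl libraries were nearly equal and both WC1 libraries lay above them. The means were 67.5 ± 0.41 CPM in Ctrl and 90.2 ± 7.0 CPM in WC1 (SD, n = 2), with a log2 fold change of 0.41 (SE 0.08, adjusted p = 0.033 in limma). The gene table does not separate the Pparg transcripts that begin at different start sites.

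Rxra, the partner of PPARG on DNA, lies at chr2:27676440-27762957 (+ strand). It was at 138 and 146 CPM in Ctrl libraries against 142 and 165 CPM in WC1 libraries, so that the groups overlapped. Its log2 fold change was 0.11 with a 95% confidence interval from -0.13 to 0.36 (limma adjusted p = 0.43). Ppargc1b, the co-activator, was the least abundant factor at 3.61 and 3.30 CPM in Ctrl libraries against 4.28 and 3.57 CPM in WC1 libraries, where the values again overlapped. Its log2 fold change was 0.14 with an interval from -0.19 to 0.48 (limma adjusted p = 0.46). Both intervals overlap that of Pparg, which ran from 0.21 to 0.61. With 1 library left out, the log2 fold change ranged from 0.0086 (without WC1 2) to 0.22 (without WC1 1) for Rxra and from 0.039 to 0.25 for Ppargc1b.

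**Figure D2:**
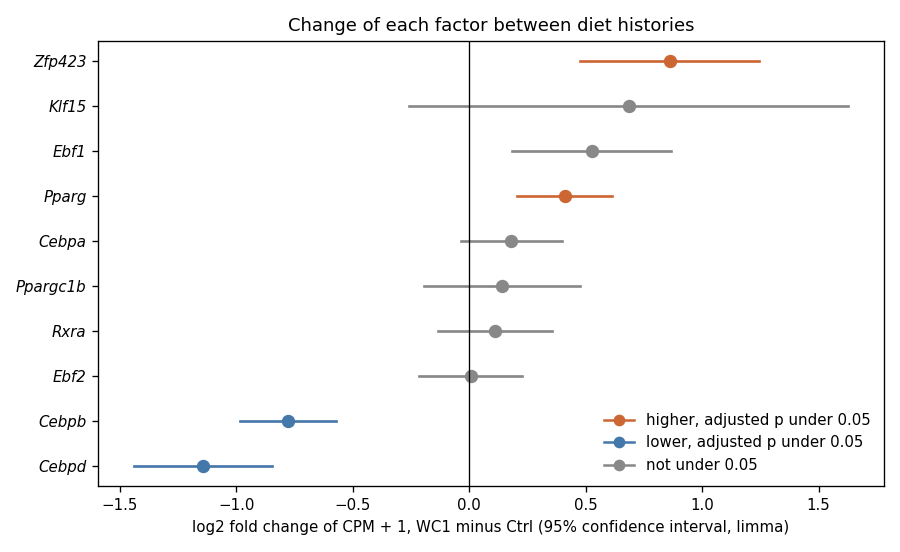
Log2 fold change of CPM + 1 (x axis, WC1 minus Ctrl) of each factor (y axis), with points for the limma estimate and bars for the 95% confidence interval. Cebpd (-1.14) and Cebpb (-0.78) lie at the low end and Zfp423 (0.86) at the high end, and the bar of Klf15 is the widest, from -0.26 to 1.63.

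Of the C/EBP genes among the 10 factors, Cebpb and Cebpd fell and Cebpa did not pass the test. Cebpb, an early inducer in the cascade, was at 70.5 and 73.6 CPM in Ctrl libraries against 39.6 and 43.8 CPM in WC1 libraries. Both WC1 libraries were thus far below the Ctrl libraries, and the mean was 42.2% lower. The log2 fold change was -0.78 (SE 0.08, adjusted p = 0.014 in limma). Cebpd, its companion in early differentiation (chr16:15887286-15891031, + strand), was at 39.4 and 47.0 CPM in Ctrl libraries against 18.0 and 20.0 CPM in WC1 libraries, a mean 56.1% lower. Its log2 fold change of -1.14 (SE 0.11, adjusted p = 0.013 in limma) lay at the 1.21 percentile of all tested genes, and that of Cebpb at the 3.08 percentile.

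Cebpa, which sustains PPARG in mature fat cells (chr7:35119293-35121928, + strand), was not lower in WC1. It was at 299 and 294 CPM in Ctrl libraries against 321 and 352 CPM in WC1 libraries. The groups did not overlap, but the log2 fold change of 0.18 ± 0.08 (SE) did not pass the test (limma adjusted p = 0.18), and its 95% confidence interval ran from -0.03 to 0.40. Without WC1 1 it was 0.25 (limma adjusted p = 0.040, in a fit that called 36.7% of all genes), and without WC1 2 it was 0.12 (limma adjusted p = 0.30).

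The levels of Cebpa, Cebpb and Cebpd were therefore compared with each other per transcript length, in TPM (reads corrected for transcript length), where ratios within a library do not depend on how libraries are scaled to each other. The level of Cebpa was 2.44 and 2.30 times that of Cebpb in the Ctrl libraries and 4.68 and 4.63 times in the WC1 libraries. It was 6.49 and 5.35 times that of Cebpd in Ctrl and 15.3 and 15.1 times in WC1. The WC1 libraries were close to each other, and neither ratio overlapped between groups. Cebpa made up 63.9% and 61.6% of the summed TPM of Cebpa, Cebpb and Cebpd in Ctrl and 78.2% and 78.0% in WC1, whereas the sum itself overlapped between groups, at 338 and 349 TPM in Ctrl and 325 and 368 TPM in WC1. Pparg over Cebpb was 0.680 and 0.657 in Ctrl and 1.54 and 1.55 in WC1, so Pparg lay below Cebpb in both Ctrl libraries and above it in both WC1 libraries. Cebpg, a further C/EBP gene, is outside these ratios and the sum. It had 116 and 120 CPM in Ctrl libraries against 108 and 110 CPM in WC1 libraries (limma adjusted p = 0.27). The ratios were not tested, and an exact permutation test of 2 against 2 libraries cannot give a p below 0.333.

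**Figure D3:**
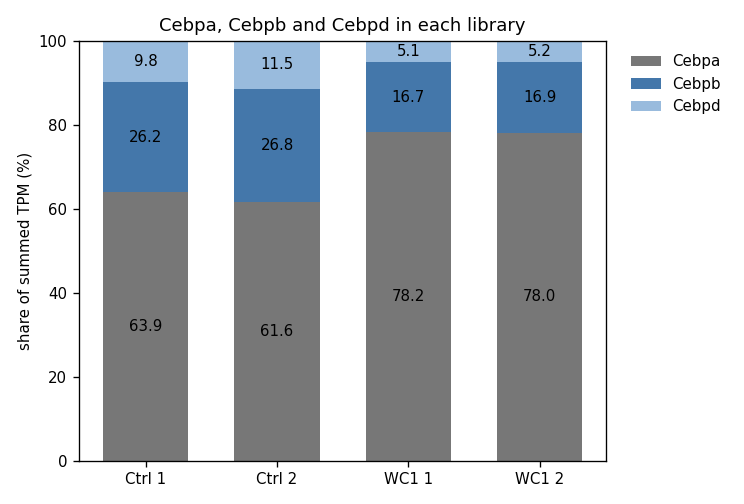
Share of Cebpa, Cebpb and Cebpd in their summed TPM (y axis, in percent) in each library (x axis). Cebpb took 26.2% and 26.8% in the Ctrl libraries and 16.7% and 16.9% in the WC1 libraries, and Cebpd 9.85% and 11.5% in Ctrl and 5.10% and 5.17% in WC1.

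Marker levels and overlapping genes are given beside the falls of Cebpb and Cebpd. The mean log2(CPM + 1) of the 10 macrophage markers was 0.72 lower in WC1. Taken relative to that mean within each library, Cebpb was at -3.19 and -3.07 in Ctrl and -3.49 and -2.89 in WC1, which overlapped, and Cebpd was at -4.01 and -3.70 in Ctrl and -4.59 and -3.98 in WC1, which also overlapped. The 12 progenitor and fibroblast markers did not all fall, as 4 were fitted above 0. Relative to their mean, Cebpb was at -1.16 and -1.10 in Ctrl and -1.81 and -1.54 in WC1. Cebpd was at -1.99 and -1.73 in Ctrl and -2.90 and -2.63 in WC1, and neither gene overlapped between groups. The part of macrophage or progenitor content in these falls was not tested. On the opposite strand, Tmem189 shares 312 of the 1504 exonic bases of Cebpb and Spidr shares 562 of the 3746 exonic bases of Cebpd in GENCODE M21, and the sources used here do not say whether reads were counted by strand. Tmem189 was at 225 and 229 CPM in Ctrl libraries against 201 and 156 CPM in WC1 libraries (log2 fold change -0.36, limma adjusted p = 0.12). Spidr was at 16.6 and 15.5 CPM in Ctrl libraries against 13.7 and 14.2 CPM in WC1 libraries (log2 fold change -0.19, limma adjusted p = 0.19). Neither passed the test, and the part of shared reads in the falls was not tested.

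Zfp423 encodes a zinc finger protein that commits precursors to the fat lineage and keeps white fat cells from turning thermogenic. It was at 20.6 and 25.3 CPM in Ctrl libraries against 37.9 and 47.1 CPM in WC1 libraries. Both WC1 libraries were well above the Ctrl libraries, and the mean was 1.85 times as high. The log2 fold change was 0.86 (SE 0.15, adjusted p = 0.027 in limma), the largest fitted rise among the 10 factors with all 4 libraries, although Klf15 exceeded it without WC1 1, and at the 95.8 percentile of all genes.

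Ebf1 and Ebf2 encode related factors of precursors and fat cells, and Ebf2 is known for its role in brown and beige fat. Ebf1 (chr11:44617317-45008091, + strand) was at 51.1 and 59.1 CPM in Ctrl libraries against 71.5 and 88.5 CPM in WC1 libraries, without overlap. Its log2 fold change of 0.53 ± 0.13 (SE) missed the threshold (limma adjusted p = 0.054), and it passed in the TPM matrix (0.049) and in DESeq2 (adjusted p = 0.0046). With 1 library left out it ranged from 0.37 to 0.68 on the log2 scale. Ebf2 (chr14:67233292-67430918, + strand) was at 18.8 and 18.0 CPM in Ctrl libraries against 19.1 and 17.9 CPM in WC1 libraries. Its values overlapped fully, at a log2 fold change of 0.01 with 95% confidence limits from -0.21 to 0.23, which lie below the Zfp423 estimate. Per length, Zfp423 was 1.23 and 1.59 times the level of Ebf2 in Ctrl and 2.24 and 2.96 times in WC1.

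Klf15, a Krüppel-like factor induced by glucocorticoids (chr6:90462576-90475238, + strand), varied most between libraries of the same group. It was at 10.5 and 16.5 CPM in Ctrl libraries against 15.4 and 30.8 CPM in WC1 libraries, so that WC1 1 lay below Ctrl 2. The log2 fold change was 0.68 (SE 0.37, adjusted p = 0.24 in limma), and the difference between the WC1 libraries was 0.95 on the same scale. Without WC1 1 the log2 fold change was 1.16 (limma adjusted p = 0.014), and without WC1 2 it was 0.21 (limma adjusted p = 0.59).

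Relative to adipocyte markers, the picture of the rising factors differed. The mean log2(CPM + 1) of the 10 adipocyte markers was 1.08 higher in WC1, which is more than the fitted rise of any of the 10 factors. Relative to this mean within each library, Pparg was at -2.45 and -2.73 in Ctrl and at -3.12 and -3.39 in WC1, lower by 0.67 on average. Zfp423 was at -4.11 and -4.11 in Ctrl and at -4.27 and -4.39 in WC1, and Cebpa at -0.32 and -0.63 in Ctrl and at -1.22 and -1.52 in WC1. The groups did not overlap in any of these comparisons. Endothelial markers were higher by 0.996 on the same scale, while the mean of the progenitor and fibroblast markers was 0.23 lower. The part of adipocyte or endothelial content in the rises of Pparg and Zfp423 was not tested.

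The order of the factors by level per length was then compared. In Ctrl it was Cebpa (216 ± 1.0 TPM, SD, n = 2), Cebpb (91.2 ± 3.4), Pparg (60.9 ± 0.79), Rxra (52.3 ± 2.5), Cebpd (36.7 ± 4.8), Ebf1 (20.2 ± 2.0), Klf15 (11.3 ± 3.6), Zfp423 (8.98 ± 1.4), Ebf2 (6.39 ± 0.17) and Ppargc1b (1.81 ± 0.10) in TPM. Only Klf15 and Zfp423 overlapped as neighbours there, with Klf15 higher within both libraries. In WC1 it was Cebpa (270 ± 23 TPM), Pparg (89.9 ± 9.0), Rxra (62.7 ± 7.7), Cebpb (58.1 ± 5.4), Ebf1 (32.4 ± 5.9), Klf15 (21.4 ± 10), Zfp423 (18.4 ± 3.2), Cebpd (17.8 ± 1.7), Ebf2 (7.08 ± 0.16) and Ppargc1b (2.27 ± 0.24). The neighbours Rxra and Cebpb, Ebf1 and Klf15, Klf15 and Zfp423, and Zfp423 and Cebpd overlapped. Within each library, Rxra was above Cebpb and Ebf1 above Klf15 in both WC1 libraries, whereas the order of Klf15 and Zfp423 and that of Zfp423 and Cebpd differed between them. Cebpb went from rank 2 to rank 4 and Cebpd from rank 5 to rank 8.

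Other regulators of fat cell formation were then counted in lists written for this comparison. Of 60 regulators 58 were tested, and 10 were called, 7 higher and 3 lower, which is 17.2% and near the 17.9% of all genes. Their median log2 fold change was 0.13. Klf5 and Dlk1 were too low to test.

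Among 23 tested genes listed as promoting differentiation, 3 rose and 2 fell. The rises were Rxrg, another RXR partner (log2 fold change 0.82, limma adjusted p = 0.030), Plagl1 (0.97, 0.031) and Wisp2 (0.38, 0.038), although the WISP2 protein is known to hold ZFP423 in the cytoplasm and so acts against the name of this list. Rxrg was at 5.83 and 6.68 CPM in Ctrl libraries against 10.4 and 13.4 CPM in WC1 libraries. The falls were Klf6 (log2 fold change -0.41, limma adjusted p = 0.034) and Klf9 (-0.39, 0.036), which both encode Krüppel-like factors. In the TPM matrix the calls of Klf6 and Klf9 were lost. Among 17 tested inhibitors, Wnt10b (1.12, limma adjusted p = 0.020), a WNT ligand that blocks differentiation, and Irf4 (0.70, 0.034) rose, and Klf2 (-0.62, 0.021), a repressor of Pparg, fell. The Wnt10b fold change depended on the pseudocount, with 2.42 at a pseudocount of 0.1 and 2.65 in edgeR on the log2 scale. Wnt10b was low in every library, at 0.13 and 0.41 CPM in Ctrl libraries against 1.74 and 1.75 CPM in WC1 libraries.

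Among 18 co-regulators, Nrip1 (0.74, limma adjusted p = 0.028), a nuclear receptor co-repressor, and Tbl1x (0.39, 0.043), a part of the NCOR complex, rose and 0 fell in limma. Nrip1 was at 7.90 and 6.62 CPM in Ctrl libraries against 13.6 and 11.9 CPM in WC1 libraries.

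Known target genes of PPARG in fat cells were counted in the same way. Of 32 targets 20 rose, when 10.2% of all genes were called higher, with a median log2 fold change of 0.81. This list shares 8 genes with the adipocyte markers, and of the other 24 targets 14 rose. Aqp7, which exports glycerol, was at 65.2 and 79.5 CPM in Ctrl libraries against 155 and 179 CPM in WC1 libraries (log2 fold change 1.20 ± 0.13, SE, limma adjusted p = 0.014). Pck1, which makes glycerol backbone for triglyceride, was higher by 0.82 (limma adjusted p = 0.016) and Agpat2, an acyltransferase of triglyceride synthesis, by 0.69 (0.016) on the log2 scale. Adipoq, which encodes adiponectin, rose by 1.23 (limma adjusted p = 0.027). Fabp4, a fatty acid carrier, stood at 5375 and 5561 CPM in Ctrl libraries against 8661 and 10499 CPM in WC1 libraries without passing the test (limma adjusted p = 0.11). It passed in edgeR (adjusted p = 0.038), in DESeq2 (adjusted p = 7.3e-08) and with quantile normalization (limma adjusted p = 0.033). In the TPM matrix it did not pass (limma adjusted p = 0.082). The target list was chosen with earlier results of these libraries known and is not independent evidence of its direction.

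**Figure D4:**
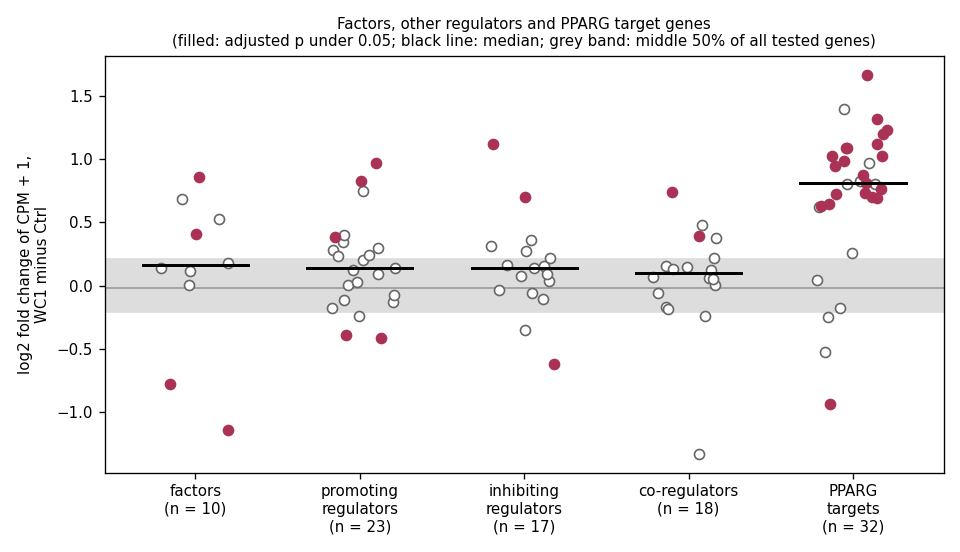
Log2 fold change of CPM + 1 (y axis, WC1 minus Ctrl) of single genes in the 5 lists (x axis), with filled points for an adjusted p under 0.05 in limma, black lines for list medians and a grey band for the central quartiles of all tested genes. The PPARG targets centre at 0.81, whereas the factors (0.16) and the 3 regulator lists (0.14, 0.14 and 0.10) lie within the band.

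The 4 calls among the factors rested on both Ctrl libraries. Without Ctrl 1 or without Ctrl 2 limma called 0 of the 10, with 4 and 5 at an unadjusted p under 0.05, and over all genes the calls dropped to 0.0425% and 0.0851%. The fold changes of the 4 genes moved little, from 0.33 to 0.49 for Pparg, 0.71 to 1.01 for Zfp423, -0.85 to -0.71 for Cebpb and -1.27 to -1.02 for Cebpd when any 1 library was left out. Without WC1 1, 7 of the 10 factors were called, against 36.7% of all genes, 5 higher (17.2% of all genes) and 2 lower (19.5%), and without WC1 2 the same 4 as with all libraries, against 18.8%. With all libraries, 5 of the 10 had an unadjusted p under 0.05 in limma, against 37.8% of all genes. Without the filter on low values limma called Cebpb and Cebpd but neither Pparg nor Zfp423, when 7.28% of all genes were called, 4.35% higher and 2.93% lower. The factors called higher were 2 in edgeR (10.5% of all genes), 3 in DESeq2 (15.1%) and 4 with the replicate number as a block (12.5%, and 10.6% lower).

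**Figure D5:**
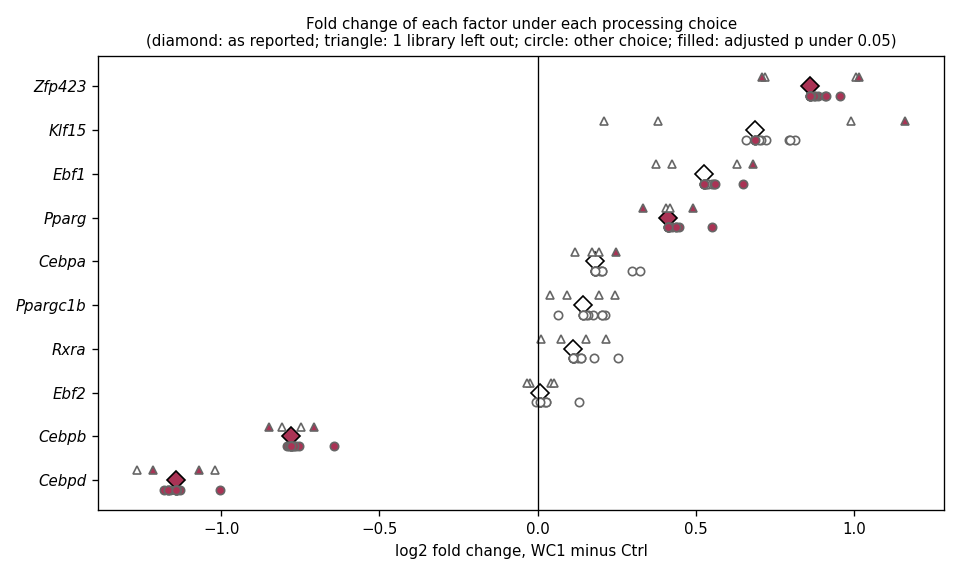
Log2 fold change of each factor (x axis, WC1 minus Ctrl) under each processing choice, with factors on the y axis, diamonds for the values reported, triangles for fits with 1 library left out, circles for other choices, and fill for an adjusted p under 0.05. The points of Cebpb and Cebpd stay between -1.27 and -0.64, those of Pparg and Zfp423 between 0.33 and 1.01, and those of Klf15 spread from 0.21 to 1.16.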

How the data were processed

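Poly(A) RNA from 4 samples had been made into directional libraries. In the first matrix, named CPM, the deposited signal is reads per gene divided by a library size rescaled by the authors. The columns sum to between 976415 and 1047785, and 100% of the values were whole reads to within 0.01 read. The other matrix was deposited by the authors as TPM, corrected for transcript length. Per the labels, the submitters' processing notes name fastp, HISAT2, StringTie and the build mm10, and the read counter, annotation and versions were not named in the sources used here. The study left out genes below 0.5 CPM.

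A gene was kept if at least 2 libraries reached 0.5 CPM (14106). WC1 was compared with Ctrl on log2(CPM + 1) by limma 3.58.1 in R 4.3.3 with a trend on abundance (two-sided), and p values were adjusted by Benjamini-Hochberg over the tested genes with calls under 0.05. On this scale the change of low genes is understated. The TPM matrix moved the all-gene median of log2 fold changes by 0.12. Relative to the median, the factors differed little between matrices, for example 0.43 and 0.45 for Pparg and -0.76 and -0.74 for Cebpb. Alternatives were other pseudocounts, filters and scalings, the TPM matrix, edgeR 4.0.16 and DESeq2 1.42.0 on the recovered reads, a replicate block, and each library left out. A level of 3 reads was between 0.0345 and 0.0492 CPM, for counting error only, and the spread between 2 libraries limits precision. The scripts were tested on simulated data. Coordinates are from GENCODE M21 (GRCm38, equal to mm10).

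The members and gene lists were chosen with earlier results of these data known. All 10 factors are named, and from each other list the 3 called genes with the smallest p in each direction, with Adipoq and Fabp4 as references. Tmem189, Spidr and Cebpg were named after their values were seen. A gene named by this rule is not reported here.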

Additional observations from a re-analysis of the deposited data

How the results depend on the processing

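Over 15 alternatives, 129 of 149 values of the 10 factors kept their direction and their side of the threshold. In 10 values a call was lost (8 of these with 1 library removed) and in 7 one was gained. The direction changed in 3, all of Ebf2, which was -0.0059 with quantile normalization, -0.025 without Ctrl 2 and -0.035 without WC1 1. With a library left out Ebf2 reached at most 0.051 (without WC1 2), and over all alternatives at most 0.13 (TPM matrix). Over 26 named genes the direction changed in these 3 of 388 values.

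Without a filter on low values, 18132 genes were tested and limma called 0 factors higher, 2 lower, 2 other regulators and 8 PPARG targets, while 5 factors had an unadjusted p under 0.05, and DESeq2 and edgeR on the filtered genes called 3 and 2 factors higher. DESeq2 called 18 of the 58 other regulators, and over all genes it called 15.1% higher in WC1. Its share of all genes called in either direction was not counted, so the 18 is not a result about regulators. The cause of these differences between settings was not tested. With 1 library left out, the factors called higher ranged from 0 to 5 and lower from 0 to 2, other regulators called from 0 to 25, and PPARG targets called from 0 to 26. Removing Ctrl 1 or Ctrl 2 gave the lowest counts. The spread then rests on the WC1 libraries, and the lone Ctrl library is assumed to vary like them. Among these fits the share of all genes called, given above, was also lowest without Ctrl 1 or Ctrl 2. It was highest without WC1 1, which also gave the highest counts of regulators and targets. The ranges alone are therefore not a result about these lists.

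Libraries carry the numbers 1 and 2 in either group, but no label says that a number marks a pairing. The difference between libraries 1 and 2 correlated between groups with r = 0.19 over 14106 genes, and 2 pairs cannot establish one. With the replicate block 4 factors were called higher, Klf15 and Ebf1 in addition, and 2 lower, as without it.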

Other observations

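Some regulators outside the naming rule, chosen after their values were seen, did not pass the test. Hmga2, a chromatin protein of proliferating precursors, was at 28.9 and 27.7 CPM in Ctrl libraries against 15.5 and 7.26 CPM in WC1 libraries, with a log2 fold change of -1.33 (SE 0.33, adjusted p = 0.052 in limma). Both WC1 libraries were below both Ctrl libraries. Prdm16, a factor of thermogenic fat, was at 4.78 and 5.45 CPM in Ctrl libraries against 7.70 and 11.0 CPM in WC1 libraries, with a log2 fold change of 0.75 (SE 0.18, adjusted p = 0.053 in limma). Ppargc1a, the relative of Ppargc1b that is known for mitochondrial genes, was at 1.43 and 1.75 CPM in Ctrl libraries against 3.15 and 2.13 CPM in WC1 libraries (limma adjusted p = 0.13). Srebf1, which drives lipid synthesis genes, was at 145 and 142 CPM in Ctrl libraries against 166 and 187 CPM in WC1 libraries (limma adjusted p = 0.072). Among other regulators near the threshold were Ncor1 (limma adjusted p = 0.055), Zfp467 (0.056), Klf3 (0.061), Stat5a (0.063) and Foxo1 (0.063), all fitted higher in WC1. Klf3 and Foxo1 stand in the list of inhibitors.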
